A study of Mus musculus with 51 samples.

Results

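Constant narrow H3K4me3 sites are the places in the mouse genome where a short stretch of chromatin carried called trimethylation of histone H3 at lysine 4 in every library from leptonema to diplonema. The peaks of the 10 H3K4me3 lists were merged wherever they overlapped, which gave 25578 sites on chromosomes 1 to 19. A site was a member if all 10 lists had a peak in it and no single peak of any list reached 2000 bp. This held for 2703 sites, 10.6% of all merged sites. A further 588 sites also had a peak in all 10 lists but held at least 1 peak of 2000 bp or more, and these constant wide sites serve as the comparison. Both sets were chosen by the presence and width of the H3K4me3 peaks, so all H3K4me3 values here are a description and were not tested.

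The study sorted fixed nuclei from whole testis of adult male wild-type C57Bl/6J mice into 5 substages of meiotic prophase I and ran ChIP-Seq on each. Leptotene nuclei were gated on SCP3 and STRA8 with DNA content, and zygotene, early pachytene, late pachytene and diplotene nuclei on SCP3, H1t and SCP1. H3K4me3 was precipitated with an EpiCypher antibody in 2 experiments, with 1 library per stage in each. A second antibody, which recognises both H3K4me2 and H3K4me3, gave 1 library per stage in the second experiment, and H3K9ac gave 1 library per stage in the first. The H3K9ac libraries are named so by their titles, whereas their antibody field reads H3K4me3 with the catalogue number that another sample of the series gives for H3K9ac. The labels do not say whether the experiments used separate animals, so their spread may be technical. A peak in a sorted population does not tell how many of its nuclei carry the mark: a lower share of marked nuclei and less mark per nucleus cannot be told apart.

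H3K4me3 is deposited at the promoters of active and poised genes, mainly on the nucleosomes that flank the transcription start site (TSS), and most CpG-rich promoters of broadly used genes carry a short domain of it in every cell type. In meiosis a separate enzyme, PRDM9, writes the same mark at recombination hot spots, away from most promoters and for a limited time. H3K9ac is an acetyl mark of active promoters that is usually found on the same nucleosomes as H3K4me3.

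Of the 2703 members, 2680 (99.1%, 95% exact binomial interval 98.7 to 99.5%) lay within 500 bp of an annotated 5′ end, against 48.9% of all merged sites and 99.7% of the constant wide sites. The members' promoters were CpG rich. The ratio of observed to expected CpG in the 300 bases at the site midpoint had a median of 0.901 in members, 0.915 in constant wide sites, 0.778 in the other sites at TSSs and 0.208 in the other sites outside TSSs. The ratio was above 0.6 in 95.9% of members and in 88.1% of constant wide sites. To show what such promoters look like, the 150 bases before the annotated RefSeq 5′ end of 6 members are printed 5′ to 3′ on the strand of the gene (GRCm38), with matches to 11 of the 12 searched motifs in capitals (TGACG is left in lower case). Hormad1 encodes a protein of the meiotic chromosome axis, Hnrnpa3 an RNA-binding protein with H3K9ac in all 5 lists, Prdm9 the hot spot methyltransferase and Reck a membrane-anchored protease inhibitor. Kctd3 had among the most even widths, and Ccdc181 had no H3K9ac peak in any list.
Hormad1 (chr3:95559527-95559676, plus strand): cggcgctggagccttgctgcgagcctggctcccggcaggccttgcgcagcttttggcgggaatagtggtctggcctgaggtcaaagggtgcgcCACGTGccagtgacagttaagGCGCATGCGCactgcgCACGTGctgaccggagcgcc
Hnrnpa3 (chr2:75659109-75659258, plus strand): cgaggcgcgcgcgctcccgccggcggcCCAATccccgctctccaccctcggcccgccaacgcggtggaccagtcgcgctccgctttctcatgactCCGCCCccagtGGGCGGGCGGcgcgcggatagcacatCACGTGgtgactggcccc
Prdm9 (chr17:15564355-15564504, minus strand): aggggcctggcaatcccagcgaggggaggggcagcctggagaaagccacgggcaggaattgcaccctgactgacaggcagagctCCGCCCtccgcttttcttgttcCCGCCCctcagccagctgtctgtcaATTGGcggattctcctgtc
Reck (chr4:43875380-43875529, plus strand): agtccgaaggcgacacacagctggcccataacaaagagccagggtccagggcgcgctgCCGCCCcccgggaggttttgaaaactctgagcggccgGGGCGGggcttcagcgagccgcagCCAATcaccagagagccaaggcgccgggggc
Kctd3 (chr1:189007841-189007990, minus strand): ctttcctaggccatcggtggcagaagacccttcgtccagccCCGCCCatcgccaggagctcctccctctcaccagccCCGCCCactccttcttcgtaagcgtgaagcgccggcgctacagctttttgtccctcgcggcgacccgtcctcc
Ccdc181 (chr1:164275448-164275597, plus strand): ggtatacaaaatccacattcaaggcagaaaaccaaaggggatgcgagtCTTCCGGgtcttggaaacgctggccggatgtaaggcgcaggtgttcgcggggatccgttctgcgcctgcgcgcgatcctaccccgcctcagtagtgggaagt

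Capitals mark a match on either strand. Hormad1 holds the NRF1 motif GCGCATGCG between a pair of E-boxes (CACGTG). Hnrnpa3, Prdm9 and Reck hold the CCAAT box (CCAAT) and the GC box (GGGCGG), Hnrnpa3 also an E-box, Kctd3 GC boxes alone and Ccdc181 the ETS motif CCGGAAG on its other strand. The motif letters were counted on both strands in the RefSeq promoter windows, which run from 250 bases before to 50 bases after the 5′ end. Of 31365 windows on the autosomes, 3150 overlapped a member and 829 a constant wide site, and 2208 members (81.7%) had a window. The ETS motif was in 30.7% of the members' windows, 19.4% of the constant wide sites' windows, 14.8% of windows at other H3K4me3 sites and 9.0% of all windows. The NRF1 motif was in 6.63%, 3.38%, 3.23% and 1.73% in the same order. The GC box, in 71.5% of members' windows, was in 74.4% of the constant wide windows and 36% of all windows. The CCAAT box was in 34.3% of members' windows and 37.3% of all windows. The TATA box (TATAAA) was in 4.79% of members' windows, 3.98% of constant wide, 6.33% of other H3K4me3 and 13.6% of all windows, so its share was low in all 3 groups of windows at H3K4me3 sites. TGACG, which is contained in TGACGTCA, was in 41.2% of members', 39.3% of constant wide, 29.7% of other H3K4me3 and 21.0% of all windows. The YY1 motif AAGATGG was in 11.1%, 7.12%, 5.85% and 6.38% in that order, and the palindrome TGACGTCA in 4.92%, 2.90%, 3.05% and 1.83%. The CGCG element was in 2.38% of members' and 2.29% of constant wide windows, and in 0.566% of other H3K4me3 and 0.462% of all windows. The E-box was in 10.6% of members', 13.1% of constant wide, 10.8% of other H3K4me3 and 7.14% of all windows, the ZNF143 motif ACTACAA in 4.16%, 3.62%, 4.22% and 3.32%, and the E2F motif TTTCGCG in 2.19%, 3.26%, 1.81% and 0.861%. A match is a run of letters and was not linked to binding of any factor.

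The members' peaks sat just downstream of the 5′ end. For 1608 members with a single gene, which was protein-coding, distance was counted from the gene's own 5′ end. The position covered by a peak in the largest share of sites lay 150 to 275 bp downstream in all 10 H3K4me3 lists. The peak's midpoint was downstream of the 5′ end at 86.6 to 94.5% of sites. The base at the 5′ end itself was covered at only 20.96% of sites in early pachynema of experiment 2, the list with the narrowest peaks, and at 92.5% in leptonema of experiment 2. In early pachynema of experiment 2 the median peak ran from 62 to 441 bp downstream, and in diplonema of experiment 2 from -259.5 to 812 bp, where negative values are upstream. For H3K9ac at the same sites, the position most often covered by a peak lay 200 to 300 bp downstream in all 5 lists. Of the 1608 sites, 791 had an H3K9ac peak in leptonema, 541 in late pachynema and 106 in diplonema, so these positions rest on fewer sites. In zygonema the median H3K9ac peak ran from -347 to 714 bp and in late pachynema from 115 to 447 bp downstream.

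**Figure D1:**
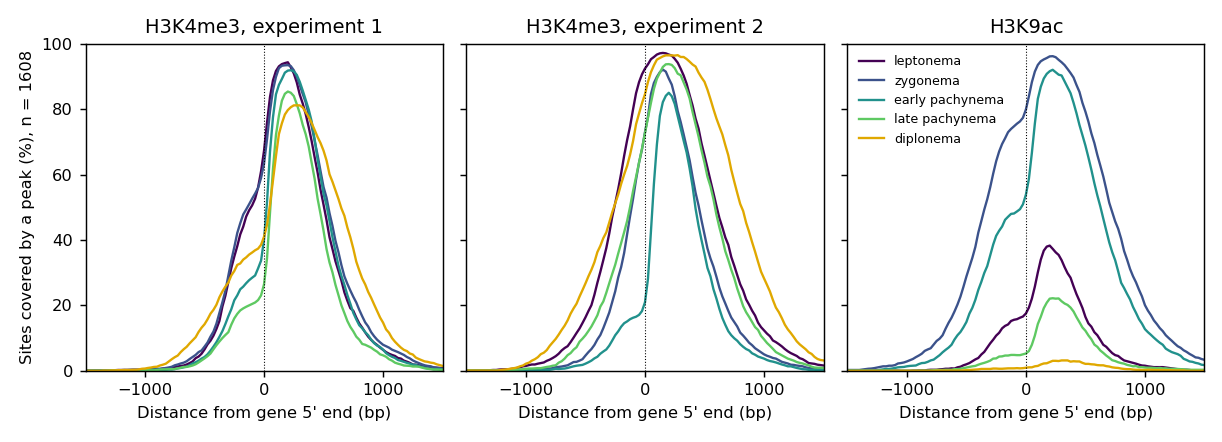
Share of 1608 single-gene constant narrow sites (y axis, %) covered by a called peak at each distance from the gene's 5′ end (x axis, bp, positive values downstream), for H3K4me3 in both experiments and for H3K9ac, 1 line per stage. All curves peak downstream of the 5′ end (dotted line), and in early pachynema of experiment 2 the 5′ end itself was covered at 20.96% of sites.

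The members' TSSs belonged to 3652 genes, of which 3118 were protein-coding. These were 15.0% of the 20807 protein-coding genes annotated on the autosomes, and 3.53% had a constant wide site. At 837 members (31.0%) genes of both strands started within 500 bp of the site, and at 431 members (15.9%) protein-coding genes of both strands did. Constant wide sites, which are longer and so can reach more 5′ ends, had genes of both strands at 47.1%. Measured at the site midpoint alone, the shares were 27.9% in members, 30.6% in constant wide sites and 12.1% in the other sites at TSSs. Among noncoding genes, 49 of the 190 annotated as bidirectional promoter lncRNAs (25.8%) had a member, against 84 of 5209 lincRNAs (1.61%). Without strand in the peak lists, the peak of 1 gene and that of its divergent partner cannot be told apart. By chromosome the share of protein-coding genes with a member ran from 9.84% on chromosome 7 to 19.7% on chromosome 5.

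Genes of the basic machinery of the cell held members more often than the 15.0% of all protein-coding genes. The share was 59.3% for subunits of RNA polymerase II, Mediator and TFIID (32 of 54), 57.6% for spliceosome proteins (34 of 59) and 57.4% for proteasome subunits (27 of 47). It was 50.0% for cytoplasmic ribosomal proteins (39 of 78), 48.1% for translation initiation factors (25 of 52), 47.1% for ubiquitin-conjugating enzymes (16 of 34) and 43.8% for subunits of oxidative phosphorylation (35 of 80). The CCT chaperonin, which folds actin and tubulin, had members at 4 of 7 genes. Mitochondrial ribosomal proteins followed with 26 of 75 and tRNA synthetases with 11 of 37. Mitochondrial import had 5 of 21, and DNA repair and replication 19 of 70. The Zfp zinc finger genes were near the 15.0% of all protein-coding genes, with 61 of 383 (15.9%). Of all 20807 protein-coding genes, 11488 (55.2%) had any H3K4me3 site and 3118 a member, so the 15.0% counts unmarked genes as well. Genes without any site were 2 of 59 for spliceosome proteins, 4 of 70 for DNA repair and replication and 111 of 383 for Zfp genes. The lists were not set against marked genes alone.

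At single genes of these lists the peak was present throughout but its width moved. Rpl11, of the large ribosomal subunit, had peaks of 329, 287, 416, 338 and 502 bp in experiment 1 and of 329, 167, 381, 811 and 673 bp in experiment 2, from leptonema to diplonema. Med1, a Mediator subunit that contacts nuclear receptors, had 679, 861, 888, 496 and 1023 bp in experiment 1 and 781, 673, 858, 885 and 1091 bp in experiment 2. At Med1 both diplonema values lay above those of all other stages, whereas at Rpl11 the highest value came from diplonema in experiment 1 and from late pachynema in experiment 2. Psma1, a subunit of the proteasome core, had 730 and 822 bp in leptonema, above all its values from early pachynema on (326 to 578 bp). Eprs, which charges transfer RNA with glutamate and proline, kept between 671 and 1107 bp, and Atp5b, a catalytic subunit of ATP synthase, between 333 and 1276 bp. The median of the mean width was 712.6 bp over the 40 member sites of ribosomal protein genes, 602.7 bp over the 27 of the proteasome and 866 bp over the 16 of ubiquitin-conjugating enzymes, against 733.4 bp over all members.

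Meiotic prophase genes had members at 12 of 48 genes and a constant wide site at another 5, and 2 had no H3K4me3 site. Among all protein-coding genes 15.0% had a member. Of the 11488 protein-coding genes with any H3K4me3 site, 3118 did. The lists of this paragraph were not tested against either background. Spermatid genes had members at 3 of 28 (10.7%), which were Oaz3, Zpbp and Zpbp2. The Oaz3 site was also that of Mrpl9, a mitochondrial ribosomal protein gene, and the Zpbp site also that of Spata48. No spermatogonial gene (of 19), Sertoli, Leydig or other somatic testis gene (of 22), Hox gene (of 39) or clustered histone gene (of 67) had a member. The 12 meiotic prophase genes were Ddx4, Hormad1, Hsf2bp, Mael, Piwil2, Prdm9, Spo11, Stag3, Syce1, Sycp2, Trip13 and Ythdc2. Ddx4, a germ cell RNA helicase, had H3K9ac peaks in all 5 lists, of 399, 1319, 1288, 422 and 346 bp from leptonema to diplonema. Spo11, which makes the meiotic double-strand breaks, had no H3K4me3 peak above 620 bp. Hormad1 had widths of 829, 1297, 1045, 440 and 658 bp in experiment 1 and 1106, 976, 629, 761 and 1012 bp in experiment 2. As a check of the sort, 5 of 9 spermatocyte marker genes had a peak in all 10 lists and all 9 in at least 4, whereas none of 5 spermatid markers had a peak in any list. Of the longer lists above, 16 of 28 spermatid genes and 9 of 19 spermatogonial genes had no H3K4me3 site, and the others had a site in at least 1 list. Of 7 spermatogonial markers 4 had no peak in any list and the rest a peak in at most 4, of 6 Sertoli cell markers 3 had none and the rest a peak in at most 2, and of 5 Leydig cell markers 4 had none and Insl3 a peak in 1. Stra8 and Hist1h1t, whose proteins were used in the sort, had a peak in 2 lists each.

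Genes of enzymes that write or remove the marks, and of other subunits of their complexes, were also among the members. Of 18 H3K4 methyltransferase and demethylase genes, 7 (38.9%) had a member, among them the core subunits Ash2l, Dpy30, Rbbp5 and Wdr5. Of 19 H3K9 acetyltransferase and deacetylase genes 6 (31.6%) did, among them Crebbp, Hdac1, Hdac2 and Kat5. Among all protein-coding genes 15.0% had a member and 55.2% any H3K4me3 site, which all genes of both lists had. Crebbp, a broad acetyltransferase coactivator, had widths of 1258 and 1638 bp in leptonema and 268 and 1527 bp in diplonema. The diplonema libraries of the 2 experiments thus differed more at this gene than the stages did in experiment 2.

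**Figure D2:**
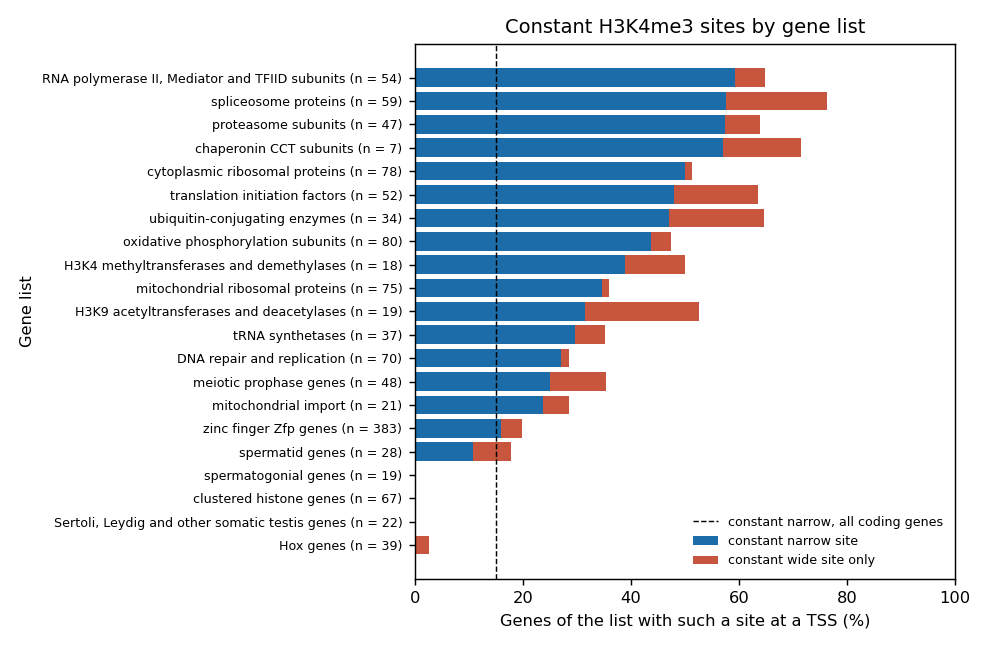
Share of the autosomal protein-coding genes of each list (y axis, n in the label) that had a constant narrow site (blue) or only a constant wide site (red) at a TSS (x axis, %). The dashed line marks 15.0%, the share of all protein-coding genes with a constant narrow site, and lists of transcription, splicing and proteasome subunits reach 57.4% or more, while the 4 lists at the foot hold no constant narrow site.

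The order of the stages by the members' width was not the same in both experiments. The median width of the widest peak per site was 702 bp in experiment 1 and 921 bp in experiment 2 in leptonema, which gives 811.5 ± 155 bp (SD, n = 2). It was 752 and 622 bp in zygonema (687 ± 91.9), 608 and 409 bp in early pachynema (508.5 ± 141), 472 and 795 bp in late pachynema (633.5 ± 228) and 727 and 1177 bp in diplonema (952 ± 318). The lowest stage was late pachynema in experiment 1 and early pachynema in experiment 2, and the highest was zygonema in experiment 1 and diplonema in experiment 2. The medians of whole lists moved along, from 380 bp in early pachynema of experiment 2 to 773 bp in diplonema of experiment 2. Within its own list the median member stood between the 53.1 and the 71.3 percentile of widths. In every library the members' median was 0.484 to 0.568 of that of the constant wide sites, a gap that the rule itself makes.

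**Figure D3:**
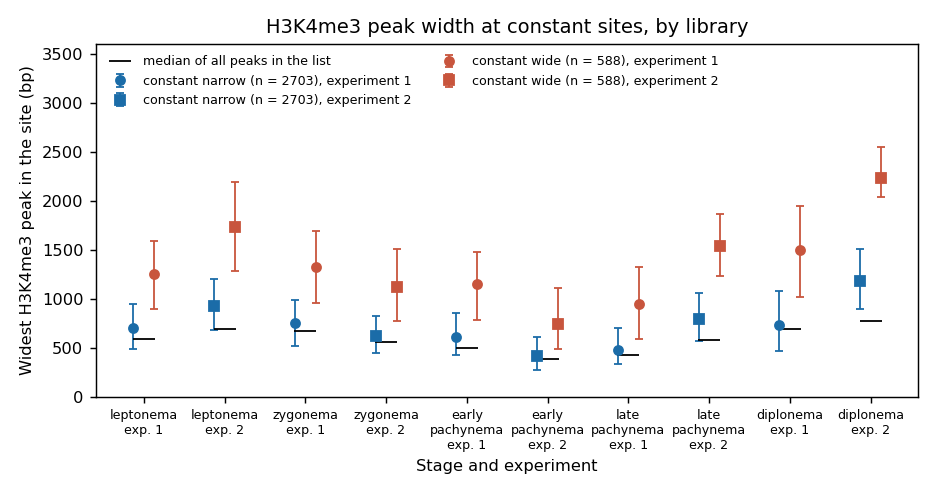
Median width of the widest H3K4me3 peak (y axis, bp) in constant narrow and constant wide sites for each of the 10 libraries (x axis), with bars from the lower to the upper quartile and black dashes for the median of all peaks of that list. The members' medians run from 409 bp in early pachynema of experiment 2 to 1177 bp in diplonema of experiment 2.

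From late pachynema to diplonema 2009 members (74.3%) widened in both experiments and 62 (2.29%) narrowed in both. From leptonema to diplonema 1296 (47.9%) widened and 587 (21.7%) narrowed in both, and 817 moved in opposite directions. From leptonema to early pachynema 1515 (56.0%) narrowed in both and 143 (5.29%) widened in both. Set relative to the median member of each library, 640 (23.7%) widened and 975 (36.1%) narrowed in both from late pachynema to diplonema. From leptonema to diplonema 936 (34.6%) widened and 950 (35.1%) narrowed on this scale, and from leptonema to early pachynema 1008 (37.3%) and 710 (26.3%). Dividing by the library's median member removes any shift that the members share. The relative scale therefore shows only how a site changed against the other members. Across members, the widths of 2 libraries of the same stage had a rank correlation of 0.566 to 0.750 (5 pairs), and those of different stages of 0.283 to 0.757 (40 pairs). These describe 2703 sites that share libraries, and no p is given. Diplonema of experiment 2 held the widest peak of 61.0% of members and leptonema of experiment 2 that of 23.8%.

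The 6 promoters picked for the largest change in mean width from leptonema to diplonema changed in 1 direction in both experiments. Prdm9 had peaks of 1049, 916, 692, 196 and 167 bp from leptonema to diplonema in experiment 1, and of 1750, 540, 180, 496 and 489 bp in experiment 2. Its mean width fell by 1071.5 bp between these stages, and leptonema was the widest stage in both experiments. Reck went from 1201 to 167 bp and from 1561 to 238 bp, and the shared promoter of Fkbp15 and Slc31a1, a copper transporter gene, from 1119 to 203 bp and from 1868 to 628 bp. The largest rises were at Cradd, an adaptor of cell death signalling, from 295 to 1448 bp and from 418 to 1971 bp, at Chmp2b, of the ESCRT membrane-sealing complex, from 268 to 1665 bp and from 424 to 1549 bp, and at B3galnt1, a glycosyltransferase gene, from 151 to 1457 bp and from 539 to 1717 bp. At Chmp2b both libraries of the other 4 stages stayed at or under 580 bp, so the diplonema values stand apart from all others. B3galnt1 was already at 995 to 1194 bp in early and late pachynema. Since this difference picked the sites, it is not tested.

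The coefficient of variation (CV) of width over the 10 libraries had a median of 0.396 in members and 0.411 in constant wide sites. The most even widths at a protein-coding TSS were those of the divergent pair Dbf4 and Slc25a40 (912 to 1210 bp, CV 0.0945), of Kctd3 (414 to 564 bp, CV 0.102) and of the divergent pair Atp5j and Gabpa (1196 to 1690 bp, CV 0.104). Gabpa encodes an ETS factor. The least even were Psmd3, a subunit of the proteasome cap (264 to 1946 bp, CV 0.956), Auh (169 to 1417 bp, CV 0.932) and Uqcc2, an assembly factor of respiratory complex III (208 to 1623 bp, CV 0.907). At Psmd3 the other 9 libraries stayed at or under 479 bp, and the 1946 bp came from diplonema of experiment 2 alone. At Auh the 2 highest values, 758 and 1417 bp, were those of leptonema and diplonema of experiment 2.

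**Figure D4:**
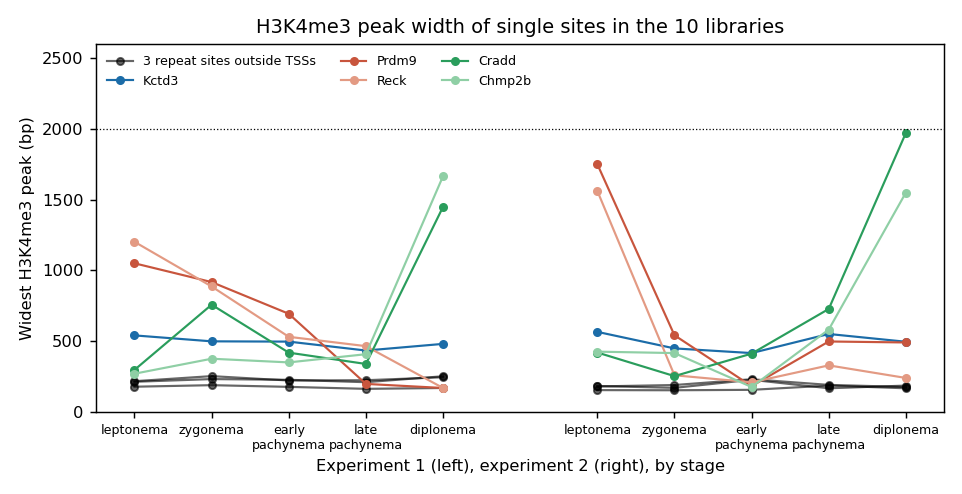
Width of the widest H3K4me3 peak (y axis, bp) at single members from leptonema to diplonema in experiment 1 (left) and experiment 2 (right). Prdm9 and Reck narrow and Cradd and Chmp2b widen in both experiments, Kctd3 stays between 414 and 564 bp, and 3 repeat sites outside TSSs lie at 151 to 251 bp in all libraries; the dotted line is the 2000 bp limit.

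The limit cut through a continuous range of widths. Just inside it were Dhx15 (widest peak 1999 bp), Ppm1b (1998 bp) and Thap1 (1996 bp), and just outside it Ddx6 (2000 bp) and the shared promoter of Bckdha and Exosc5 (2001 bp). For all but Dhx15, whose widest peak came from leptonema of experiment 2, that peak came from diplonema of experiment 2. Short of 1 list, 998 more narrow sites had a peak in 9 of the 10. The missing list was diplonema of experiment 1 for 387 of them (38.8%) and early pachynema of experiment 2 for 313 (31.4%). The lists held between 4883 and 15699 peaks, and members took up 17.2% of the longest (zygonema, experiment 1) and 55.4% of the shortest (early pachynema, experiment 2).

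H3K9ac was called at nearly every member in zygonema and early pachynema and at few in diplonema. The share of members with an H3K9ac peak was 50.5% in leptonema (48.6 to 52.4%), 99.4% in zygonema (99.1 to 99.7%), 98.9% in early pachynema (98.5 to 99.3%), 33.7% in late pachynema (31.9 to 35.5%) and 6.96% in diplonema (6.02 to 7.98%). The 95% exact intervals cover counting error over sites only, since each stage has 1 library. Over all merged sites the shares were 10.9%, 53.8%, 28.2%, 6.64% and 1.97%. The H3K9ac lists themselves held 2823, 16003, 7744, 1727 and 516 peaks, in the same order of stages, and depth is unknown from peak lists. When each list was reduced to its widest 516 peaks, the members' share was 8.69%, 3.81%, 5.29%, 8.07% and 6.96%, so the stage pattern was lost. That reduction kept only peaks of at least 1981 bp in zygonema and of any width in diplonema, and it was chosen after seeing the data. The diplonema share also moved with the rule for the sites. It was 3.95% with a width limit of 1500 bp and 13.1% when the H3K4me3 lists were cut to equal size, which left 571 sites. How much of the stage pattern follows list length and how much the mark cannot be told apart with 1 list per stage.

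**Figure D5:**
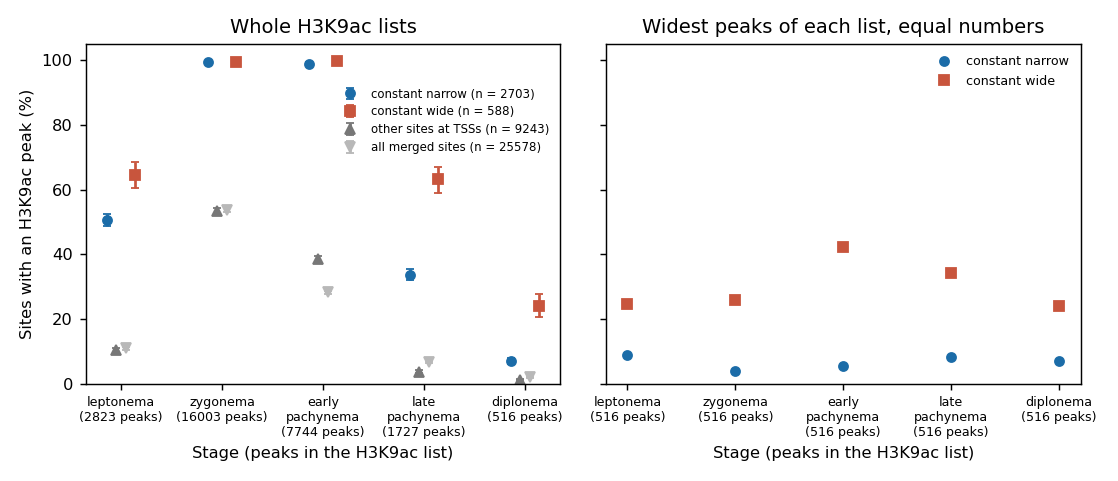
Left, share of sites with an H3K9ac peak (y axis, %) by stage for constant narrow, constant wide, other TSS and all merged sites, with 95% exact binomial intervals and the number of peaks of each list under the axis. Right, the same share when each list is reduced to its widest 516 peaks, where members lie between 3.81 and 8.69% at every stage.

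Calls of the other stages fell almost only at members that also had a peak in zygonema and early pachynema, where nearly every member had one. The most frequent pattern, at 904 members (33.4%), was H3K9ac in zygonema and early pachynema only, followed by those with leptonema as well (805, 29.8%), all stages but diplonema (442, 16.4%), and zygonema with both pachytene stages (326, 12.1%). All 5 lists had a peak at 88 members (3.26%) and none at 3. Of the 188 members with a peak in diplonema, 139 (73.9%) also had one in late pachynema, against 33.7% of all members. Leptonema overlapped less with these stages. Of its 1365 members with a peak, 38.9% had one in late pachynema, against 33.7% of all members, and 8.35% in diplonema, against 6.96%. Among the 88 with all 5, the widest mean H3K9ac peak was at 1810013L24Rik, with 1334, 3109, 2466, 650 and 228 bp from leptonema to diplonema. Next came a site outside TSSs, chr17:13589879-13591557, with 780, 1206, 1658, 1613 and 1649 bp, and then Hnrnpa3 with 1357, 2243, 1806, 410 and 335 bp. The peaks at 1810013L24Rik and Hnrnpa3 were widest in zygonema and at or under 650 bp from late pachynema on, whereas the site outside TSSs stayed wide. The 3 members without any were Gk5, a glycerol kinase family gene, Zfp748 and Ccdc181. Gk5 had H3K4me3 peaks of 268 to 1367 bp and peaks of the second H3K4 antibody of 1295 to 2124 bp, so both H3K4 antibodies gave a peak at every stage.

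Members of greater H3K4me3 width more often had H3K9ac. Split into quartiles of mean H3K4me3 width, the share in leptonema was 34.8%, 48.7%, 51.4% and 67.2% from the narrowest to the widest quartile. In late pachynema it was 17.0%, 28.7%, 34.8% and 54.1%, and in diplonema 2.66%, 3.99%, 6.67% and 14.5%. In zygonema all quartiles were at 98.4% or above. An overlap of 1 bp with the merged site was enough, and longer sites can take up more peaks. The part of site length in the rise over quartiles was not tested. Members with H3K9ac in 2, 3, 4 and 5 lists had median mean H3K4me3 widths of 651, 737.5, 885 and 1019 bp. The share also ran with the number of H3K4me3 lists. Of narrow sites at TSSs with a peak in only 5 H3K4me3 lists, 7.89%, 67.4%, 47.5%, 3.26% and 1.89% had H3K9ac from leptonema to diplonema, of those with 9 lists 35.3%, 97.7%, 96.4%, 14.4% and 1.95%, and of the members among them 50.4%, 99.4%, 99.0%, 33.5% and 6.60%. The median widest H3K4me3 peak of these groups rose alongside, from 827 to 1075.5 and 1279 bp, and its part in the difference was not tested.

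H3K9ac was called less often at members than at constant wide sites in 4 of 5 libraries. At the constant wide sites the share was 64.6%, 99.3%, 99.8%, 63.1% and 24.0% from leptonema to diplonema. Averaged over the 5 libraries it was 57.9% in members and 70.2% in constant wide sites, a difference of -12.3 ± 12.3 percentage points (SD, n = 5 libraries; exact two-sided sign-flip permutation test, p = 0.125, adjusted p = 0.125 over 3 comparisons). With 5 libraries the smallest p this test can give is 0.0625. The libraries are of 5 different stages, so the SD and the p concern spread over stages, not over replicates. By stage the difference was -14.1, 0.125, -0.903, -29.4 and -17.0 percentage points. Where the mark was present, its peaks were narrower at members in all 5 libraries, with medians of 426, 1105, 852, 320 and 270 bp against 610.5, 1581, 1502, 537 and 425 bp. The mean difference was -336.5 ± 217 bp (n = 5, exact sign-flip permutation p = 0.0625, adjusted p = 0.0938). Longer sites can take up more peaks. With an H3K9ac peak asked for within 250 bp of the site midpoint, the same span at every site, the difference in share was -3.79 percentage points (exact p = 0.50). It was -20.1 percentage points with the peaks above the median width of each H3K9ac list and -23.6 with H3K9ac lists of equal size (exact p = 0.0625 for each), and -7.03 with H3K4me3 lists of equal size (exact p = 0.25). Both cuts of the H3K9ac lists kept their widest peaks, and peaks at members were narrower, so these cuts cannot tell presence from width. Members were lower on average under every setting given here, while the size of the difference moved more than 1.5 times either way.

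The second antibody, for H3K4me2 and H3K4me3, marked the members at nearly every stage but drew them wider. All but 2 members had a peak in each of its 5 lists, and per list the share was at least 99.96%, against 69.5%, 78.1%, 48.6%, 51.9% and 51.0% of all merged sites from leptonema to diplonema. Its median peak at members was 1586 bp in leptonema, 1536 bp in zygonema, 1509 bp in early pachynema, 2213.5 bp in late pachynema and 2369 bp in diplonema. Constant wide sites had 2364.5, 2404, 2323.5, 3642 and 3907.5 bp. The members' peaks were narrower in all 5 libraries, with a mean difference of -1085.6 ± 367 bp (SD, n = 5). No test is given, since this antibody also reads H3K4me3, whose widths in the same experiment helped choose the sites. Sites called narrow by the EpiCypher lists were thus often not narrow here. The share of members with a peak of 2000 bp or more was 21.1%, 18.8% and 14.6% in the first 3 stages, 62.8% in late pachynema and 69.8% in diplonema, against 11.7%, 8.31%, 4.96%, 18.8% and 21.4% of all merged sites. Dhx15 had 2047, 2540, 1839, 3161 and 2777 bp with this antibody, and Kctd3 1341, 1144, 881, 1037 and 1333 bp.

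The 23 members outside TSSs were divided by their number of CpGs after their values had been seen. Of these, 15 held 6 to 175 CpGs. They lay 545 to 28793 bp from the nearest annotated 5′ end, with 6 over exons, among them exons of Foxc1, Marcks, C1qtnf4 and Nup160. H3K9ac peaks were in 4 or 5 lists at 5 of these 15 sites, and in diplonema at 3. The other 8 held 0 to 3 CpGs, lay 6842 to 74487 bp from the nearest 5′ end, 6 of them between genes and 2 in introns, and had 55.4 to 100% of their bases in the genome's soft-masked (repeat) letters. All 8 had H3K9ac peaks in at least 4 of 5 lists and in the diplonema list of 516 peaks. At members as a whole that list marked 6.96%. Their widths were also more even, with a median CV of 0.150 against 0.424 in the CpG-holding sites outside TSSs. The 4 members outside TSSs with the smallest widest peak are printed here on the plus strand (GRCm38) because their letters set them apart from the promoters above. Each is largely built of units of 4 or 5 bases, and the capitals mark the longest uninterrupted run.
intergenic repeat (chr14:68292740-68292931, plus strand): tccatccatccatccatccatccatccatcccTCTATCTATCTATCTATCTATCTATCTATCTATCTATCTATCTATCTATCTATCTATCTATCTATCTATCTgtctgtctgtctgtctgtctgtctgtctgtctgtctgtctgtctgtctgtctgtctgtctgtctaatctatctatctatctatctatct
Cpeb4 intron repeat (chr11:31922594-31922843, plus strand): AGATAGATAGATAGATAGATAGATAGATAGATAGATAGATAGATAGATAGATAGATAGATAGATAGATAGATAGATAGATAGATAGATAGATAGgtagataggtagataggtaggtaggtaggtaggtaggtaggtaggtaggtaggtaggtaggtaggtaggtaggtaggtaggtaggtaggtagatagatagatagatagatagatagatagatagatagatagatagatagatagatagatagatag
intergenic repeat (chr6:147236701-147236951, plus strand): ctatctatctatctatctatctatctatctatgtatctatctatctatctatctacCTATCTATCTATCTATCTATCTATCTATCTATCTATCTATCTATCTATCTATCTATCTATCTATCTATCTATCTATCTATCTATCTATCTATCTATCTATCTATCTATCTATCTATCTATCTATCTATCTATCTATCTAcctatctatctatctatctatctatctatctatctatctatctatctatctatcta
intergenic repeat (chr17:13305963-13306220, plus strand): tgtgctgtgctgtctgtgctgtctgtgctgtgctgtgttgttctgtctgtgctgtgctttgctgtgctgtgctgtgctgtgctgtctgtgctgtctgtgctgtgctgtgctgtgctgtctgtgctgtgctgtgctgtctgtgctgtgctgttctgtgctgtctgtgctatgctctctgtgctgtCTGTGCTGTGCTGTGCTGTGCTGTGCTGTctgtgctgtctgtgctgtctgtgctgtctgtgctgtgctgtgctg

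The first had a widest peak of 187 bp and widths of 151 to 187 bp over the 10 H3K4me3 lists. The repeat in the Cpeb4 intron had 165 to 250 bp in H3K4me3, 180 to 238 bp in H3K9ac and 180 to 217 bp with the second H3K4 antibody. The third had 174 to 251 bp, 195 to 238 bp and 191 to 227 bp for the same 3 antibodies. The uninterrupted run was 71 bases in the first, 94 in the second, 139 in the third and 29 in the fourth. A larger example, at chr17:13589879-13591557 in introns of 2700054A10Rik and AC174800.1 and with 3 CpGs, had H3K9ac peaks of 780, 1206, 1658, 1613 and 1649 bp from leptonema to diplonema, when the median H3K9ac peak at members in diplonema was 270 bp. At Hnrnpa3 the H3K9ac peak went from 1357 to 335 bp between the same stages. The part of the repeat content in these peaks was not tested, since the peak lists hold no reads. Leaving out the 8 sites changed the members' H3K9ac share in diplonema from 6.96% to 6.68%.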

How the data were processed

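The deposited peak lists used here give coordinates only (chromosome, start and end of each peak the authors called), without a score. Reads and signal tracks were not used here, so depth and peak height are unknown. Per the labels and the study's methods, sonicated chromatin was immunoprecipitated, reads were aligned to mm10 with BWA 0.7.12 and broad peaks were called with MACS2 2.1.2 against input of the same stage. Caller settings for H3K9ac are not given in the sources used here. Of 51 samples, the 20 with peak lists at a single stage were used and 31 were not. Peaks on chromosomes 1 to 19 were merged with a minimum overlap of 1 bp, and a site took the widest peak of each list. TSSs were 5′ ends of GENCODE release 21 (mouse) transcripts ± 500 bp. Sequences came from RefSeq GRCm38.p6. Shares have 95% Clopper-Pearson intervals. Constant narrow and constant wide sites were compared by an exact two-sided sign-flip permutation test over 5 libraries, 1 per stage, with p adjusted over 3 comparisons. That of H3K4me2/3 widths is given as values only, since the antibody also reads H3K4me3. The comparison of H3K9ac widths was added later. Named sites were the top 3 by each stated measure (5 outside TSSs) and the first 4 members of each gene list by alphabet, of which some are described and 1 is not reported here. Spo11 and the fourth repeat were chosen after their values were seen. Members and lists were chosen with earlier results of these data known. The site rule recovered 100% of 1140 simulated sites. Scripts used Python 3.11.15, numpy 2.4.6, scipy 1.17.1, pysam 0.24.0 and matplotlib 3.10.9. Alternatives covered the width limit, number of lists, list size, TSS definition, H3K9ac overlap and each library left out.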

Additional observations from a re-analysis of the deposited data

How the results depend on the processing

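No paired analysis was possible because, for pairs of the same replicate number, H3K9ac and the second H3K4 antibody have 1 library per stage and the H3K4me3 lists chose the sites. The sign-flip tests set 2 kinds of sites against each other within a library. H3K9ac shares are listed below in the order of the stages, from leptonema to diplonema unless stated. A width limit of 1500 bp gave 47.5% in leptonema, 27.6% in late pachynema and 3.95% in diplonema, and one of 3000 bp 52.7%, 38.3% and 9.46%. A peak in at least 9 of 10 lists gave 46.4%, 99.0%, 98.2%, 28.5% and 5.78%. H3K4me3 lists of equal size left 571 sites, 99.8% of them at TSSs, with 68.5%, 100%, 100%, 51.5% and 13.1%. The peaks above the median width of each H3K9ac list gave 25.9%, 78.3%, 65.2%, 15.8% and 2.92%, and H3K9ac lists of equal size, an alternative chosen after seeing the data, 8.69%, 3.81%, 5.29% and 8.07% before diplonema. A peak within 250 bp of the midpoint gave 99.1%, 97.6%, 31.7% and 5.96% from zygonema on. TSSs of protein-coding transcripts alone held 97.9% of members. As rank percentiles in their list, the members' widths were 64.6, 57.5, 58.4, 61.7 and 62.2. In 100 bases before the 5′ end the motif shares were 21.2% for CCAAT, 49.6% for the GC box, 17.5% for ETS, 3.65% for NRF1, 1.24% for TATA, 3.30% for TGACGTCA, 22.1% for TGACG, 2.13% for YY1, 1.71% for ZNF143, 5.27% for the E-box, 1.43% for the CGCG element and 0.603% for E2F, as fewer bases were searched. Leaving out 1 H3K4me3 library gave 2708 to 3093 sites, of which 98.9 to 99.2% lay at TSSs, and H3K9ac shares of 48.7 to 51.2%, 99.3 to 99.4%, 98.7 to 99.0%, 31.3 to 36.1% and 6.11 to 8.10%. The difference in H3K9ac share from the constant wide sites was -15.4 to -7.98 percentage points, and that in H3K4me2/3 width -1162 to -972 bp, with 1 library left out. Apart from these, the cause of the changes was not tested. Sites within 500 bp of each other merged into 1 gave the same 2703 members.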
